A study of Mus musculus with 47 samples.

Results

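Collagen chain genes encode the polypeptides that make up the collagens, the main structural proteins of the extracellular matrix. The genes described here are all entries of the lung, aorta and blood arrays whose symbol is Col, a type number, the letter a and a chain number, which gave 36 of 18138 entries. By the kind of collagen they encode, 11 are fibrillar chains, 8 are chains of basement membrane collagens and 17 belong to other types. RNA came from male C57BL/6J mice, 6 weeks of age when exposure began, that had inhaled the fume of gas metal arc welding with stainless steel (GMA-SS), 40 mg/m3 for 3 hr/d on 10 d (5 d a week for 2 weeks), or air. They were sacrificed 4 hr or 28 d post-exposure. The 47 arrays fall into 12 groups, with 1 array per mouse in a tissue and 4 per group, save that the GMA-SS aortas at 4 hr number 3. Aorta and blood came from the same mice, and lungs from others. Lung RNA was taken from homogenates of the whole lung, aorta RNA from the whole vessel and blood RNA from whole blood after depletion of globin transcripts, so all levels are averages over mixed cells, in which fewer cells of a type and less RNA per cell cannot be told apart. Each beadchip held a single tissue at a single time, with air ahead of GMA-SS in the order of positions, so that position and exposure cannot be told apart.

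Fibrillar collagens are types I, II, III, V, XI, XXIV and XXVII. Types I and III assemble into the fibers that give lung septa, airway walls and arteries their tensile strength. Fibroblasts and smooth muscle cells are the main sources of types I and III there. Type IV chains form the sheet-like network of basement membranes under epithelium and endothelium, where types XV and XVIII are also found, and the alveolar basement membrane holds a network made of the alpha 3, alpha 4 and alpha 5 chains of type IV. The remaining types include collagens that sit on the surface of fibrils (IX, XII, XIV, XVI), the beaded filaments of type VI and collagens that span the cell membrane (XIII, XVII, XXIII, XXV). Newly made chains are hydroxylated, folded by chaperones, trimmed outside the cell and cross-linked. Sustained gain of fibrillar collagen is the hallmark of fibrosis.

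The arrays measured bead brightness, which was corrected for background and is given as a log2 level after quantile normalization within a tissue. Because 16 was added before log2 was taken, fold changes of dim genes are understated. Levels of different genes come from different probes and are not set against each other. Testing in a tissue required 3 or more arrays with a detection p under 0.05. This left 27 of the 36 collagen genes in lung (8 fibrillar, 8 basement membrane and 11 other), 22 in aorta (7, 7 and 8) and 8 in blood (3, 0 and 5), out of 11133, 9850 and 9259 genes tested. Not tested in lung were *Col5a3*, *Col11a1*, *Col24a1*, *Col7a1*, *Col9a3*, *Col10a1*, *Col13a1*, *Col19a1* and *Col28a1*. Between 10239 and 10872 of all entries were above background on a lung array, 8678 to 9646 on an aorta array and 8090 to 8406 on a blood array. Of 8 alveolar type II cell markers, 8 passed the detection filter in lung and 2 in aorta, and of 8 smooth muscle markers 6 passed in lung and 7 in aorta. The aorta array of GMA-SS 28 d replicate 2 stood apart from its tissue (mean correlation with the other arrays of its group 0.9672, against 0.9819 to 0.9943 on the other aorta arrays) and carried airway epithelial and cartilage transcripts. The lung array of GMA-SS 28 d replicate 2 carried skeletal muscle transcripts. The main values they touch are given with and without them.

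In the lung at 4 hr, the chains of the major fibrillar collagens were higher after GMA-SS. *Col3a1*, the chain of type III collagen, was 1.75-fold higher, and *Col1a1* and *Col1a2*, the chains of type I collagen, were 1.42-fold and 1.33-fold higher. *Col15a1*, a basement membrane collagen of vessels and muscle, was 1.34-fold higher. *Col17a1*, the hemidesmosome collagen that anchors epithelial cells, was 1.35-fold lower, and *Col4a6*, a type IV chain of epithelial and smooth muscle basement membranes, was 1.42-fold lower. These 6 passed a Benjamini-Hochberg adjusted p of 0.05 over all genes tested (limma), 4 of 27 higher and 2 of 27 lower, where 9.56% of all tested genes were called higher and 9.87% lower.

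The level of *Col3a1* at 4 hr was 10.57, 10.49, 10.77 and 10.60 on the air arrays and 11.39, 11.64, 11.25 and 11.38 on the GMA-SS arrays. The lowest GMA-SS array thus lay above the highest air array, and the log2 fold change was 0.81 ± 0.15 (SE, adjusted p = 0.000943). *Col1a1* measured 11.33, 11.25, 11.58 and 11.18 in air and 11.64, 12.23, 11.76 and 11.72 after GMA-SS, again with no overlap (0.51 ± 0.12, adjusted p = 0.00672). *Col1a2*, which encodes the partner chain of the type I fiber, measured 11.42, 11.35, 11.53 and 11.48 against 11.71, 12.20, 11.84 and 11.68 (0.41 ± 0.10, adjusted p = 0.00574). Replicate 2 of the GMA-SS group was the highest array for these 3 genes, and each kept its call when any single array was left out. *Col15a1* measured 8.28, 7.99, 8.33 and 8.20 in air against 8.66, 8.85, 8.48 and 8.48 (0.42 ± 0.11, adjusted p = 0.0121), and its adjusted p was 0.0507 without GMA-SS 4 hr replicate 2.

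Of the members that were lower at 4 hr, *Col17a1* measured 8.95, 8.73, 8.68 and 8.75 in air and 8.22, 8.17, 8.48 and 8.53 after GMA-SS (-0.43 ± 0.11, adjusted p = 0.00935). *Col4a6* measured 7.13, 6.92, 7.09 and 7.37 in air and 6.87, 6.41, 6.43 and 6.80 after GMA-SS (-0.50 ± 0.14, adjusted p = 0.0183). In both genes every GMA-SS array lay below every air array, by the smallest margin in *Col4a6*, where 6.87 stood next to 6.92. The *Col4a6* call did not hold without air 4 hr replicate 4 (adjusted p = 0.0659), GMA-SS 4 hr replicate 2 (0.0674) or GMA-SS 4 hr replicate 3 (0.0611). With *Col16a1*, a fibril-associated chain whose difference did not pass the test (-0.13 ± 0.07, adjusted p = 0.214), 4 members had no overlap in the higher direction and 3 in the lower, where 12% and 14.5% of all tested genes had none. The 8 genes called at either time are drawn array by array in the plot of lung levels.

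**Figure D1:**
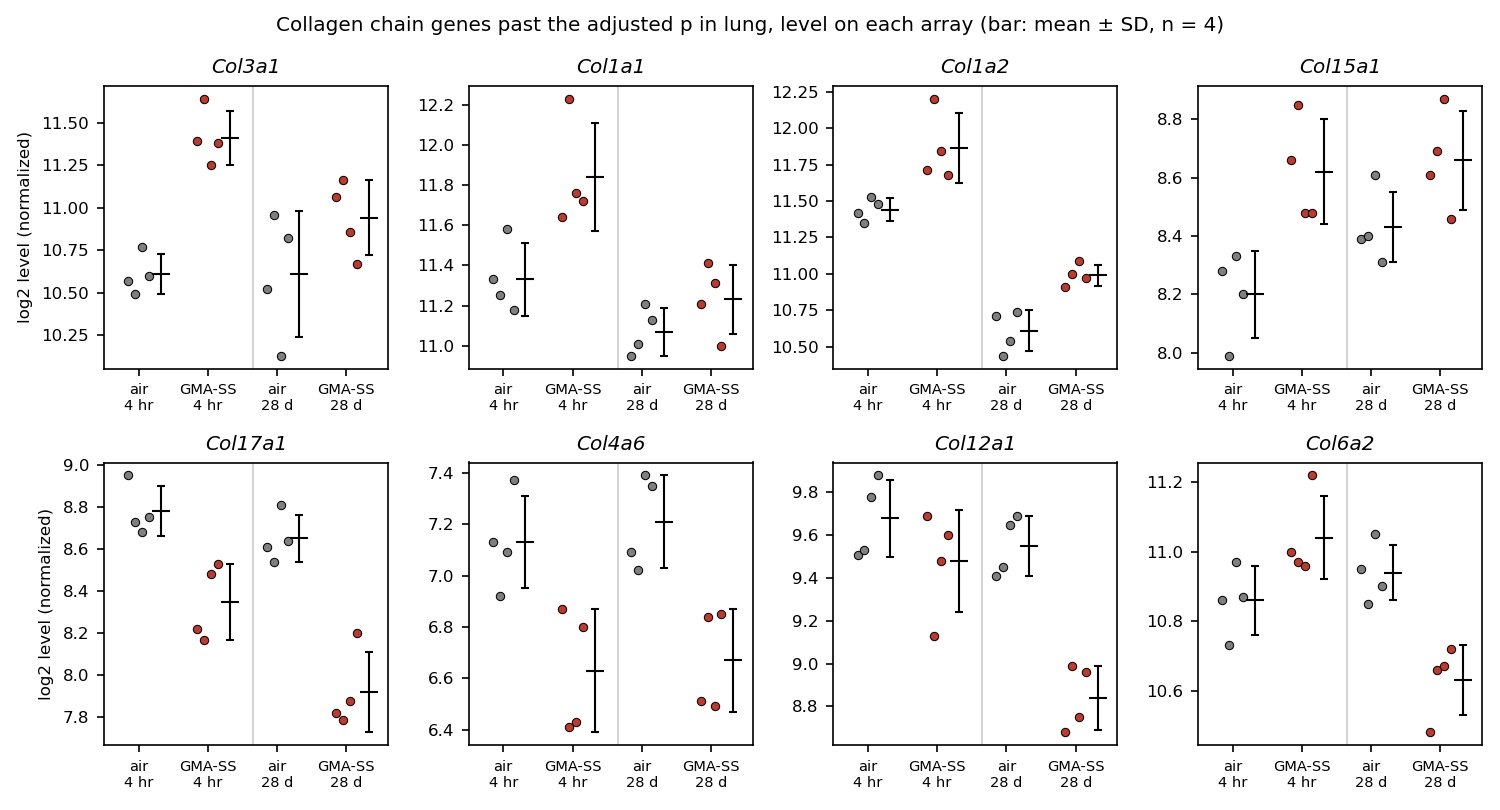
Log2 level (vertical axis, normalized) of the 8 collagen chain genes past an adjusted p of 0.05 in lung at 4 hr or 28 d, with 1 point per array (gray, air; red, GMA-SS) and the mean ± SD of each group of 4. *Col3a1* at 4 hr runs from 10.49 to 10.77 in air and from 11.25 to 11.64 after GMA-SS, and *Col17a1* lies lower after GMA-SS at both times.

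Promoter windows of the genes that changed are shown because they allow the letters upstream of a fibrillar pair that was higher to be read beside those of the epithelial gene that was lower. The windows run from 250 bases before to 50 bases after the start of the gene (RefSeq, GRCm38.p6), and 29 of the 36 members had an entry in that table. Capitals mark the CCAAT box (CCAAT, or ATTGG on the other strand), the TATA box (TATAAA or TTTATA) and the GC box (GGGCGG or CCGCCC), each searched on both strands; no 2 matches overlap in the windows printed.
Col3a1, chr1:45311288-45311587, plus strand: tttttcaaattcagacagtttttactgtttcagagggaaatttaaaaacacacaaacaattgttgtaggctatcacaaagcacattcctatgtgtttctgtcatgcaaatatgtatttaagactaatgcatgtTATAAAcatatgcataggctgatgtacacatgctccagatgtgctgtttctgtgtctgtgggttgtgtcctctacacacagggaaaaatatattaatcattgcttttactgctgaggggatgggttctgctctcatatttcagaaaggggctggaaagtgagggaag
Col1a2, chr6:4505368-4505667, plus strand: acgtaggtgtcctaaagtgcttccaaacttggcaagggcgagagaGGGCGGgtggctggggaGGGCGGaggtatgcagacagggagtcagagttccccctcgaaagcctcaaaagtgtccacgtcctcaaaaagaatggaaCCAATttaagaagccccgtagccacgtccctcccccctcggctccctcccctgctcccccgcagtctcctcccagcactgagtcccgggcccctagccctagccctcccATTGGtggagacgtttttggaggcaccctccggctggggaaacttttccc
Col17a1, chr19:47691993-47692292, minus strand: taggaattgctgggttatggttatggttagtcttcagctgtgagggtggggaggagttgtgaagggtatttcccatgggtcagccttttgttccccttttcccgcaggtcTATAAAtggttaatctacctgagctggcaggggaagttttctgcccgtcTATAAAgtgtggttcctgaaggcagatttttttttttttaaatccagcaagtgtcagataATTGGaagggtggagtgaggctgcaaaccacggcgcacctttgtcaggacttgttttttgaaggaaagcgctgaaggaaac
The *Col3a1* window held a single TATA box, upstream of the start, and that of *Col17a1* held TATA boxes 140 and 91 bases before it and a CCAAT box on the other strand 31 bases before it. *Col1a2* had GC boxes 205 and 188 bases before the start, a CCAAT box 109 bases before it and another on the opposite strand at the start itself. The *Col4a6* window held a GC box 21 bases before the start, and none of these letters was in that of *Col15a1*. Of 32851 windows of this length, 37.4% held a CCAAT box, 13.6% a TATA box and 35.7% a GC box, against 11, 5 and 18 of the 29 collagen windows. A match of letters is not a bound site.

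The other collagen genes of the lung did not pass the test at 4 hr, with log2 fold changes from -0.24 to 0.44. Among fibrillar chains *Col5a2*, a chain of the type V collagen that regulates fibril width, measured 7, 6.77, 6.63 and 6.52 in air and 6.87, 7.44, 7 and 7.38 after GMA-SS (0.44 ± 0.18, adjusted p = 0.0957), and its partner *Col5a1* gave 0.11 ± 0.11. *Col27a1*, a fibrillar chain of cartilage, was the only tested fibrillar chain with a value below 0 (-0.24 ± 0.16). As a class, 7 of 8 fibrillar chains lay above 0 with a median of 0.26, against a median of -0.04 and 42.6% above 0 over all genes tested. Among them *Col2a1* (0.08 ± 0.14) and *Col11a2* (0.06 ± 0.21) lay within their standard errors of 0. *Col11a2* was above background on 1 air and 1 GMA-SS array at 4 hr. The basement membrane chains had a median of 0.05. Their main pair *Col4a1* and *Col4a2*, which are neighbors in the genome, gave 0.12 ± 0.08 and 0.13 ± 0.07, *Col18a1*, the source of endostatin, gave 0.23 ± 0.09 (adjusted p = 0.0998) and the alveolar chain *Col4a3* gave -0.23 ± 0.09 (adjusted p = 0.0902). *Col18a1* passed without air 4 hr replicate 3 (0.29, adjusted p = 0.0459). The remaining types had a median of -0.07, with 4 of 11 above 0, among them *Col6a1* and *Col6a2*, the adjacent genes of 2 type VI chains (0.17 ± 0.08 and 0.18 ± 0.07). At the thresholds of the methods, an unadjusted p under 0.05 and a fold of at least 1.3, 5 members were higher and 2 lower, of 895 and 653 genes.

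**Figure D2:**
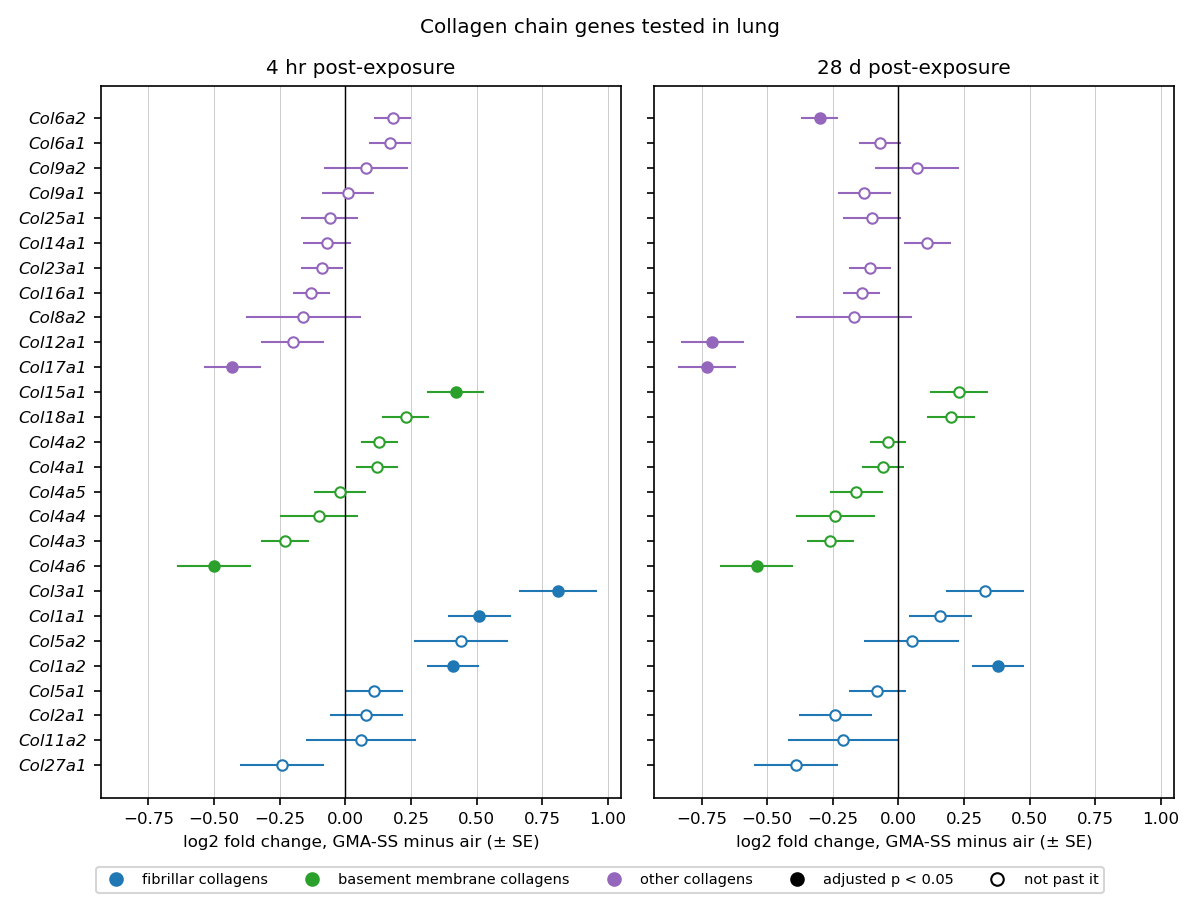
Log2 fold change (GMA-SS minus air, horizontal axis) with its standard error for the 27 collagen chain genes tested in lung, at 4 hr (left) and 28 d (right), colored by kind of collagen and filled where the adjusted p was under 0.05. At 4 hr 7 of the 8 fibrillar chains lie above 0, and at 28 d 19 of all 27 genes lie below 0.

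In the lung at 28 d, the genes that passed were mostly lower. *Col17a1* was 1.66-fold lower, *Col12a1*, a fibril-associated collagen, 1.63-fold lower, *Col4a6* 1.45-fold lower and *Col6a2* 1.23-fold lower. *Col1a2* was higher, by 0.38 on the log2 scale. In all, 1 of 27 was called higher and 4 of 27 lower, where 7.66% of all genes tested were called higher and 8.65% lower. Over the 27 genes the median was -0.11 with 8 above 0, against a median of -0.04 and 39% above 0 over all genes. The medians of the fibrillar, basement membrane and other chains were -0.01, -0.11 and -0.13.

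*Col17a1* measured 8.61, 8.54, 8.81 and 8.64 in air and 7.82, 7.79, 7.88 and 8.20 after GMA-SS at 28 d (-0.73 ± 0.11, adjusted p = 0.000223). *Col12a1* measured 9.41, 9.45, 9.65 and 9.69 in air and 8.68, 8.99, 8.75 and 8.96 after GMA-SS (-0.71 ± 0.12, adjusted p = 0.000778). In both genes every GMA-SS array lay below every air array. *Col6a2* measured 10.95, 10.85, 11.05 and 10.90 against 10.48, 10.66, 10.67 and 10.72 (-0.30 ± 0.07, adjusted p = 0.00968), and *Col4a6* measured 7.09, 7.02, 7.39 and 7.35 against 6.51, 6.84, 6.49 and 6.85 (-0.54 ± 0.14, adjusted p = 0.0153). *Col1a2* measured 10.71, 10.44, 10.54 and 10.74 in air and 10.91, 11, 11.09 and 10.97 after GMA-SS (0.38 ± 0.10, adjusted p = 0.0114). The groups did not overlap for these 5 genes, nor for *Col4a3*, whose difference did not pass (-0.26 ± 0.09, adjusted p = 0.0609), so that 1 member was separated upward and 5 downward, where 6.93% and 8.79% of all genes were. The *Col4a6* call was lost without air 28 d replicate 3 (adjusted p = 0.0521), GMA-SS 28 d replicate 1 (0.0548) or GMA-SS 28 d replicate 3 (0.0592).

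*Col3a1* and *Col1a1*, which had risen at 4 hr, did not pass at 28 d. *Col3a1* measured 10.52, 10.96, 10.13 and 10.82 in air, a wider spread than in the air group at 4 hr (SD 0.37 against 0.12), and 11.06, 11.16, 10.86 and 10.67 after GMA-SS (0.33 ± 0.15, adjusted p = 0.138). Without air 28 d replicate 2 it gave 0.45 and an adjusted p of 0.044. *Col1a1* gave 0.16 ± 0.12 (adjusted p = 0.424), *Col15a1* 0.23 ± 0.11 (adjusted p = 0.174) and *Col18a1* 0.20 ± 0.09 (adjusted p = 0.166, and 0.049 without GMA-SS 28 d replicate 4). *Col4a1*, *Col4a2*, *Col5a1*, *Col5a2* and *Col6a1* lay between -0.08 and 0.05. *Col4a3* passed without air 28 d replicate 4 or air 4 hr replicate 4, and *Col27a1* (-0.39 ± 0.16, adjusted p = 0.101) without air 28 d replicate 2 or GMA-SS 28 d replicate 2. The lung array with skeletal muscle transcripts, GMA-SS 28 d replicate 2, had a summed signal of 5 skeletal muscle markers of 34550 against 203 to 587 on the other 15 lung arrays. Without it *Col17a1* gave -0.69, *Col12a1* -0.76, *Col4a6* -0.59, *Col6a2* -0.31 and *Col1a2* 0.38, all past the adjusted p, while *Col3a1* (0.26), *Col1a1* (0.10) and *Col4a1* (-0.14) did not pass.

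Whether the response differed between the times was tested as the difference of the GMA-SS effects (28 d minus 4 h). *Col6a2* was the sole member to pass (-0.49 ± 0.10, adjusted p = 0.0434), with a value of 0.18 at 4 hr and -0.30 at 28 d. Of all genes tested, 0.269% were called with a difference above 0 and 0.305% with a difference below 0. The call was close to the threshold. It held in 4 of 16 fits that each left out an array, with adjusted p-values from 0.0382 to 0.112. The estimates for *Col12a1* (-0.51 ± 0.17, adjusted p = 0.37) and *Col3a1* (-0.47 ± 0.21, adjusted p = 0.623) were as large but did not pass, and *Col17a1* gave -0.30 ± 0.15. Of the 27 members 26 lay below 0, with a median of -0.15 against -0.01 over all genes, of which 5787 of 11133 lay below 0. The difference is signed, so a value below 0 can stand for a smaller rise at 28 d or for a deeper fall. *Col12a1*, for example, went from -0.20 at 4 hr to -0.71 at 28 d, and *Col3a1* from 0.81 to 0.33.

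Among air mice, 5 of 27 collagen genes were lower in lung at 28 d than at 4 hr and none was called higher, where 12.9% of all genes tested were called higher and 12.4% lower. *Col1a2* was lower by the largest amount, from a mean of 11.44 ± 0.08 (SD, n = 4) to 10.61 ± 0.14 (log2 difference -0.83, adjusted p = 1.69e-05). *Col5a2* (-0.60, adjusted p = 0.0201), *Col14a1*, a fibril-associated chain (-0.38, adjusted p = 0.00618), *Col23a1*, a membrane-spanning chain (-0.31, adjusted p = 0.0073), and *Col4a2* (-0.19, adjusted p = 0.0469) were also lower. *Col5a2* had an adjusted p of up to 0.0686 without air 28 d replicate 3 or air 4 hr replicate 1, and the *Col4a2* call held in 5 of 16 fits that each left out an array. *Col1a1* gave -0.26 (adjusted p = 0.126) and *Col3a1* 0.00. Because the times were run on different beadchips, age, time after exposure to air and beadchip cannot be told apart.

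The genes that make, fold and cross-link collagen were examined beside the chains. Their counts stand beside 9.56% of all tested genes called higher and 9.87% lower at 4 hr, and 7.66% and 8.65% at 28 d. At 4 hr 3 of 17 measured biosynthesis enzymes and chaperones were higher: *P4ha2* (0.48 ± 0.08, adjusted p = 0.000327) and *P4ha1* (0.31 ± 0.08, adjusted p = 0.0144), catalytic subunits of prolyl 4-hydroxylase, and *Serpinh1* (0.31 ± 0.10, adjusted p = 0.0396), the collagen chaperone Hsp47. *Plod2*, a lysyl hydroxylase of the chain ends (-0.30 ± 0.09, adjusted p = 0.0325), and *Colgalt2*, a collagen galactosyltransferase (-0.50 ± 0.16, adjusted p = 0.0395), were lower. The list's median was 0.11. Of 7 measured processing and cross-linking genes 4 were higher, namely *Bmp1*, the procollagen C-proteinase (0.43 ± 0.08), *Loxl1* (0.32 ± 0.07) and *Lox* (0.37 ± 0.09), which cross-link collagen and elastin, and *Adamts2*, the N-proteinase (0.26 ± 0.06). *Pcolce2*, which enhances the C-proteinase, was lower (-0.46 ± 0.10), and the median of the list was 0.26. At 28 d no biosynthesis gene was called higher, and *Plod2* (-0.44 ± 0.09) and *Colgalt2* (-0.65 ± 0.16) were lower. *Lox* (0.41 ± 0.09) and *Bmp1* (0.24 ± 0.08) were still called higher at 28 d, whereas *Pcolce2* (-0.38 ± 0.10) and *Pcolce* (-0.27 ± 0.07) were lower. In these lists of enzymes and processing genes, none had effects that differed between the times past the adjusted p.

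**Figure D3:**
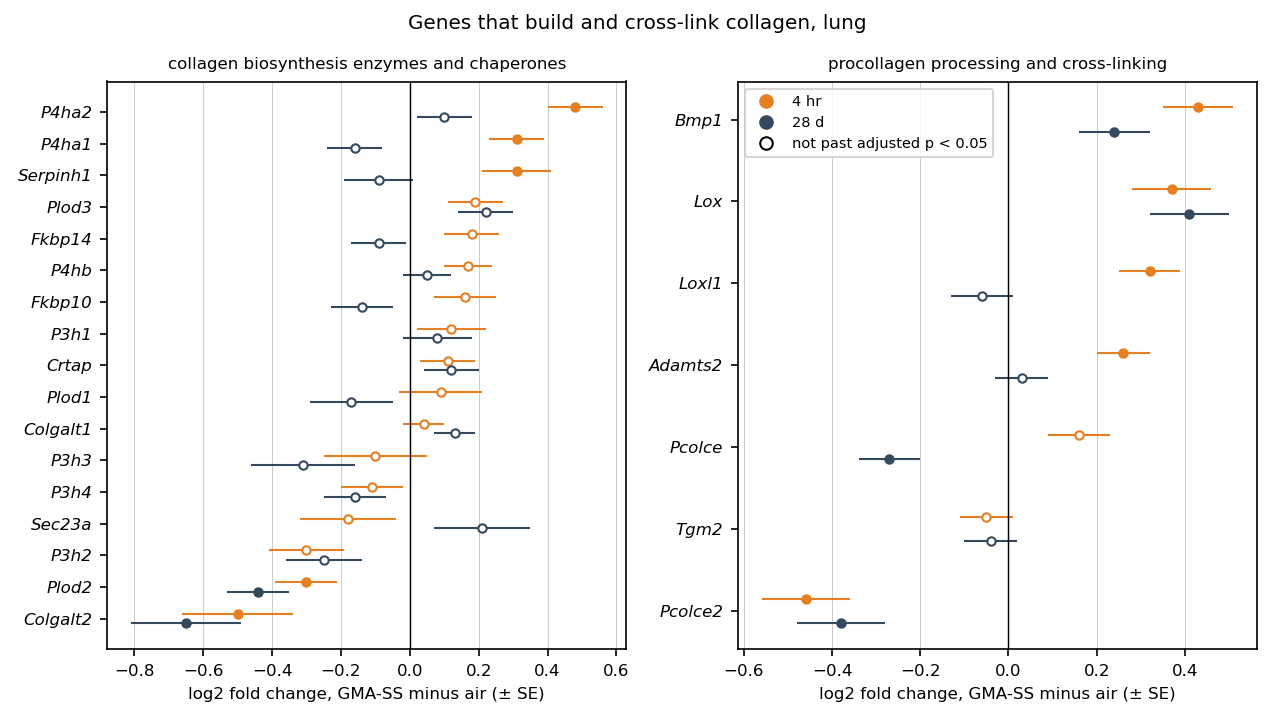
Log2 fold change (GMA-SS minus air, horizontal axis) with its standard error in lung for 17 genes of collagen biosynthesis (left) and 7 of procollagen processing and cross-linking (right), at 4 hr (orange) and 28 d (dark blue), filled where the adjusted p was under 0.05. *P4ha1*, *P4ha2* and *Serpinh1* are filled at 4 hr and open at 28 d, and *Lox* and *Bmp1* are filled at both.

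Of 8 measured collagen receptors, *Lair1*, an inhibitory receptor of leukocytes, was higher at 4 hr (0.97 ± 0.20) and at 28 d (0.85 ± 0.20). *Ddr1*, a collagen-binding receptor kinase, was higher at 4 hr (0.22 ± 0.06) and *Itga11*, a collagen-binding integrin chain of fibroblasts, lower (-0.32 ± 0.10). Of 17 matrix proteins that bind collagen, *Tnc*, tenascin C (0.78 ± 0.17), and *Eln*, elastin (0.48 ± 0.15), were higher at 4 hr, and *Dcn*, decorin (-0.23 ± 0.07), and *Nid2*, a nidogen of basement membranes (-0.31 ± 0.10), were lower. At 28 d *Lamb2*, a laminin chain (-0.27 ± 0.09), and *Nid1* (-0.23 ± 0.08) were lower. Beside the same shares of all tested genes (9.56% and 9.87% at 4 hr, 7.66% and 8.65% at 28 d), of 15 fibrogenic signals and responses 4 were higher and 2 lower at 4 hr, led by *Spp1*, osteopontin (0.91 ± 0.09), and *Timp1*, an inhibitor of matrix-degrading enzymes (2.21 ± 0.31), and at 28 d these 2 were again higher (1.61 ± 0.09 and 2.03 ± 0.31) and 4 were lower, among them *Tgfb2* (-0.34 ± 0.07) and *Pdgfb* (-0.36 ± 0.10). The effect differed between the times for *Spp1* (28 d minus 4 hr, 0.70 ± 0.13, adjusted p = 0.0207) and *Tgfb2* (-0.52 ± 0.10, adjusted p = 0.023).

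Markers of cell types also differed in the same lungs, where 9.56% of all tested genes were called higher and 9.87% lower at 4 hr and 7.66% and 8.65% at 28 d. Of 12 fibroblast markers 2 were higher and 3 lower at 4 hr and 3 were lower at 28 d, and their summed signal was 67419 to 70470 in air and 71149 to 76922 after GMA-SS at 4 hr, and 68377 to 76299 against 63160 to 75644 at 28 d. Of 6 smooth muscle and myofibroblast markers 4 were lower at each time, *Acta2* by 0.35 ± 0.08 at 4 hr, with sums of 21771 to 22382 against 15105 to 18169 at 4 hr and 18551 to 19737 against 13803 to 18685 at 28 d. Endothelial markers were lower in 2 of 7 at 4 hr and 4 of 7 at 28 d (sums 52427 to 59867 against 42531 to 50134, and 60037 to 64806 against 48834 to 55779). Macrophage markers were higher in 4 of 7 and 6 of 7 (sums 22637 to 24521 against 34559 to 37841, and 20320 to 23618 against 32111 to 37203). Airway epithelial markers were lower in 2 of 7 and 1 of 7 (sums 166406 to 172914 against 155208 to 164513 at 4 hr, and 169440 to 171549 against 151145 to 164123 at 28 d). Alveolar type II markers were higher in 3 of 8 at each time, with none called lower. Mesothelial markers were lower in 1 of 5 at 4 hr and 3 of 5 at 28 d (sums at 28 d 6601 to 7893 against 5099 to 6295), and cartilage markers in 2 of 3 and 1 of 3 (sums at 4 hr 2983 to 3760 against 2286 to 2671). Platelet markers were lower in 5 of 7 at 4 hr and 2 of 7 at 28 d, and adipocyte markers in 4 of 6 and 1 of 6. Cardiac muscle markers were lower in 3 of 6 and 1 of 6, and erythroid markers in 3 of 5 and 1 of 5. Adipocyte (29706 to 44280 against 16286 to 23917), platelet and erythroid sums did not overlap at 4 hr. Of 5 alveolar type I markers 1 was higher and 1 lower at 4 hr, and 3 were lower at 28 d. The part of these cells in the collagen values was not tested.

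In the aorta at 4 hr no collagen gene passed the adjusted p, and 0% of the 9850 genes tested did (limma, lowest adjusted p of a member 1, with 381 genes at an unadjusted p under 0.05). The fibrillar chains *Col1a2* and *Col3a1* had the 2 highest log2 fold changes among the 22 members. *Col1a2* measured 9.21, 8.92, 9.15 and 9.34 in air and 9.54, 9.93 and 9.47 after GMA-SS (0.49 ± 0.15, unadjusted p = 0.00453). *Col3a1* measured 8.79, 8.47, 8.70 and 8.74 in air and 8.85, 9.17 and 8.91 after GMA-SS (0.30 ± 0.09, unadjusted p = 0.00401). For both genes every GMA-SS array lay above every air array, and no other member was separated in either direction, where 3.61% of all genes were separated upward and 5.3% downward. They were also the 2 members past the thresholds of the methods (an unadjusted p under 0.05 and a fold of at least 1.1), which 171 genes passed upward and 194 downward. Replicate 2 of the GMA-SS group was the highest array for both. Some aorta arrays at 4 hr carried skeletal muscle transcripts. The summed signal of 6 skeletal muscle markers was 2442 and 8951 on air 4 hr replicates 2 and 3 and 7739 on GMA-SS 4 hr replicate 3. On the other aorta arrays at 4 hr it was 179 to 278. The part of this tissue in the collagen values was not tested.

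The remaining aorta values at 4 hr were small beside their errors. *Col1a1* gave 0.23 ± 0.15, *Col15a1* 0.18 ± 0.14, *Col11a2* -0.13 ± 0.14 and *Col9a1*, *Col4a4* and *Col4a6* -0.09 each. *Col4a1*, *Col4a2*, *Col5a1*, *Col6a1* and *Col18a1* lay between 0.03 and 0.05. The fibrillar chains had a median of 0.12 and all 22 members a median of 0.05, against -0.01 over all genes. Standard errors of the members ran from 0.04 to 0.29. The enzymes, receptors and matrix lists likewise had no gene past the adjusted p in aorta at either time. *Lox* at 28 d gave 0.15 ± 0.08 and *Loxl1* at 4 hr 0.18 ± 0.08.

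In the aorta at 28 d no collagen gene passed either (0% of all genes did, lowest adjusted p of a member 0.721), and 0 members but 673 of all genes had an unadjusted p under 0.05. *Col1a2* gave 0.23 ± 0.14 and *Col3a1* -0.10 ± 0.08, and the difference of the effects between the times did not pass for any member (0% of all genes; *Col3a1* -0.40 ± 0.12, adjusted p = 0.998). *Col25a1* (-0.11 ± 0.06) was the only member with separated groups, all GMA-SS arrays lower, where 1.03% of all genes were separated upward and 1.24% downward. It was above background on 4 air arrays and on no GMA-SS array at 28 d. Its air level did not exceed the dimmest signal above background on the GMA-SS arrays, so no lower level after GMA-SS is shown. *Col5a1* gave -0.11 ± 0.08, *Col1a1* -0.04 ± 0.14, *Col4a1* -0.06 ± 0.08, *Col4a2* 0.06 ± 0.04, *Col6a1* -0.01 ± 0.10, *Col15a1* 0.15 ± 0.13 and *Col18a1* 0.13 ± 0.12. The median of the 22 members was 0. The summed signal of 6 cardiac muscle markers at 28 d was 9340 to 23164 in air. After GMA-SS it was 4955, 3685 and 6038 on replicates 1, 3 and 4, and 28996 on replicate 2. The part of heart muscle in the collagen values was not tested.

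The 3 highest values of the aorta at 28 d were those of *Col23a1* (0.39 ± 0.23), *Col2a1*, the fibrillar chain of cartilage (0.31 ± 0.26), and *Col4a5* (0.30 ± 0.15). *Col2a1* measured 6.47 on GMA-SS 28 d replicate 2 and 4.91 to 5.17 on the other 3 GMA-SS arrays, and *Col23a1* measured 6.83 against 5.56 to 5.79. The same array was high for *Col9a2* (6.55 against 4.66 to 4.89) and *Col10a1* (5.91 against 4.37 to 4.39), chains of cartilage, and for the epithelial gene *Col17a1* (5.79 against 4.57 to 4.66). These 3 genes were above background on no other aorta array. The summed signal of 6 airway epithelial markers was 46553 on it and 261 to 881 on the other 14 aorta arrays, and that of 4 cartilage markers was 1366 against 249 to 425. *Scgb1a1*, the club cell secretoglobin, stood at 14.4 against at most 8.73, and *Chad*, chondroadherin, at 10.09 against at most 4.94. Without this array *Col2a1* gave -0.05 ± 0.14, *Col23a1* 0.11 ± 0.16 and *Col4a5* 0.18 ± 0.15, and still no member passed, while 2 of 9732 genes did. Other values also moved without it, to 0.07 for *Col15a1*, -0.17 for *Col5a1*, -0.12 for *Col6a1*, -0.10 for *Col4a1* and -0.09 for *Col1a1*.

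**Figure D4:**
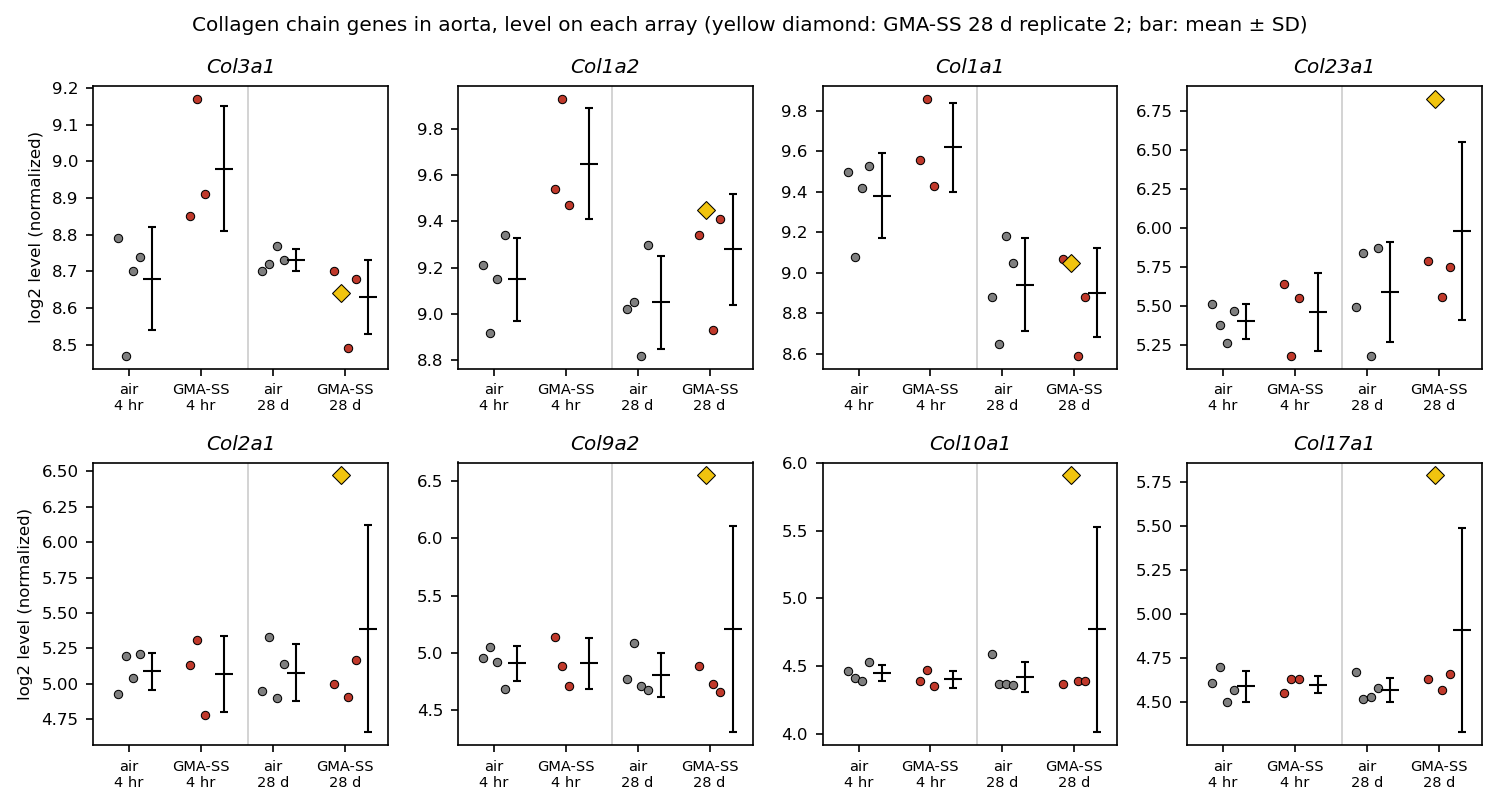
Log2 level (vertical axis, normalized) of 8 collagen chain genes on each aorta array (gray, air; red, GMA-SS; yellow diamond, GMA-SS 28 d replicate 2), with the mean ± SD of each group. *Col1a2* and *Col3a1* lie higher after GMA-SS at 4 hr, and the diamond stands above all other arrays for *Col2a1*, *Col9a2*, *Col10a1*, *Col17a1* and *Col23a1*.

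Among air mice 3 of 22 collagen genes were lower in aorta at 28 d than at 4 hr and none was called higher, where 5.85% of all genes were called higher and 6.56% lower. *Col12a1* went from 6.47 ± 0.13 (SD, n = 4) to 5.86 ± 0.17 (-0.61, adjusted p = 0.00208), *Col4a5* from 7.87 ± 0.22 to 7.21 ± 0.22 (-0.66, adjusted p = 0.0126) and *Col4a2* from 11.11 ± 0.04 to 10.91 ± 0.04 (-0.20, adjusted p = 0.007). *Col1a1* gave -0.44 (adjusted p = 0.0547), which passed without aorta air 4 hr replicate 2, air 28 d replicate 3 or GMA-SS 28 d replicate 2 or 3. As in lung, beadchip and time cannot be told apart.

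Base levels were compared over the air arrays of both tissues, 8 of lung and 8 of aorta from different mice, normalized together. Of 27 collagen genes tested 12 were called higher in lung and 11 higher in aorta, where 45% and 41.9% of the 11195 genes tested were. By kind, 1 fibrillar chain was called higher in lung (*Col5a2*, which was above background on no air aorta array) and 6 in aorta, 5 basement membrane chains in lung and 3 in aorta, and 6 and 2 of the other types. This split depends on scaling: with arrays scaled to their 75th percentile, which moves the median of all genes to -0.31, the counts were 10 and 16, and with no scaling, where that median was 2.06, they were 25 and 1. Relative to the median of all genes, 12 members lay above and 15 below it, and 11 and 16 under either of the other scalings. Tissue, beadchip and the kit used to extract RNA cannot be told apart.

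The genes furthest above aorta in lung were chains of the alveolar basement membrane and membrane-spanning collagens. *Col4a3* had a median of 10.26 (9.95 to 10.67) on the lung arrays and 5.43 (5.07 to 6.14) on the aorta arrays, of which 1 of 8 was above background, a log2 difference of 4.71 ± 0.12 (SE, adjusted p = 1.38e-16). Its neighbor in the genome *Col4a4* had 8.54 (8.17 to 9.05) against 5.85 (5.55 to 6.37), a difference of 2.63 ± 0.10, and *Col4a5* gave 1.02 ± 0.08. *Col23a1* had 9.91 (9.50 to 10.18) against 6.63 (6.20 to 7.08), a 9.46-fold difference. *Col17a1* was not above background on any of the 8 air aorta arrays. With quantile normalization it was at least 2.63-fold higher in lung. This bound was set by the dimmest signal above background on each aorta array, or by the gene's own signal where that was higher. It holds for that scaling only, since the log2 difference fell from 2.48 to 1.74 with scaling to the 75th percentile. The entry is also over several probes, for which detection p-values can miss bright signals. *Col4a1* (0.89) and *Col4a2* (1.06) were higher in lung as well, but *Col4a1* fell to 0.02 with scaling to the 75th percentile. For *Col5a2* the bound was below 1, so no higher level in lung is shown, and with that scaling its value was below 0 (-0.56).

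In aorta, the basement membrane collagens *Col15a1* and *Col18a1* were the furthest above lung. *Col15a1* had a median of 9.87 (9.72 to 10.01) in aorta and 7.10 (6.79 to 7.37) in lung, a 6.86-fold difference (adjusted p = 1.27e-17), and *Col18a1* 11.36 (11.08 to 11.59) against 9.02 (8.88 to 9.27), a 4.85-fold difference. The ranges were far apart for both. *Col14a1* was 3.04-fold, *Col27a1* 2.48-fold and *Col5a1* 2.01-fold higher in aorta. These 5 kept their direction with scaling to the 75th percentile, and relative to the median of all genes also without scaling. The chains of the main fibers differed little between the tissues: *Col3a1* gave -0.36 ± 0.10, *Col1a2* -0.27 ± 0.07 and *Col1a1* -0.13 ± 0.08, of which the last did not pass (adjusted p = 0.155). With scaling to the 75th percentile they gave -0.52, -0.51 and -0.38, all past the adjusted p. The air aortas also carried transcripts of fat and heart muscle, and some of them those of skeletal muscle. The summed signal of 8 adipocyte markers was 81707 to 84719 at 4 hr and 80670 to 86758 at 28 d. That of 6 cardiac muscle markers was 7549 to 11511 and 9340 to 23164. The part of these tissues in the aorta levels was not tested.

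**Figure D5:**
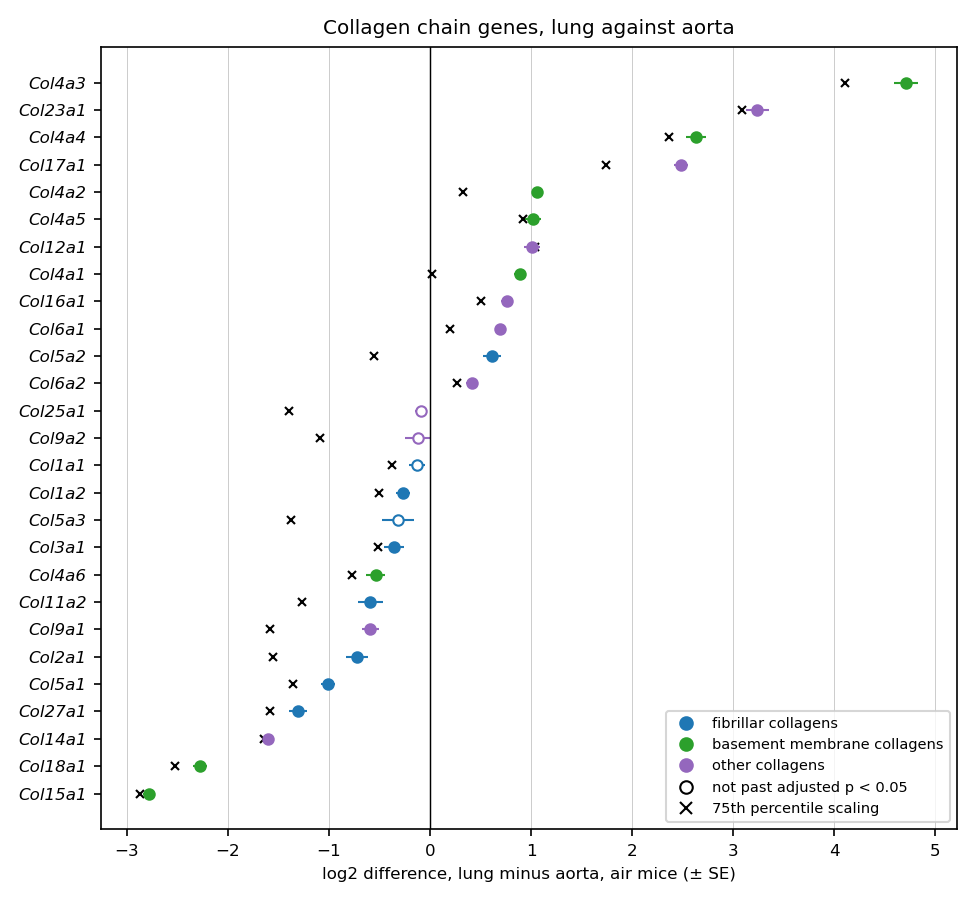
Log2 difference (lung minus aorta, horizontal axis) with its standard error for the 27 collagen chain genes tested over the air arrays, colored by kind and filled where the adjusted p was under 0.05; crosses mark the value with scaling to the 75th percentile. *Col4a3*, *Col23a1*, *Col4a4* and *Col17a1* lie to the right and *Col15a1* and *Col18a1* to the left under both scalings, and *Col5a2*, not above background in aorta, changes sign.

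In blood, 8 collagen genes passed the detection filter, none of them a basement membrane chain. None was called at 4 hr, where 0.0108% of all genes were, or at 28 d, where 0% were. *Col5a1* measured 5.10, 5.02, 4.88 and 5.80 in air and 6.29, 5.46, 5.62 and 5.85 after GMA-SS at 28 d (0.61 ± 0.21, unadjusted p = 0.00977, adjusted p = 0.613), and the groups overlapped. *Col12a1* gave -0.37 ± 0.13 at 4 hr (unadjusted p = 0.00988, adjusted p = 0.86). It was above background on 3 of 16 blood arrays, at 4 hr on 2 air arrays and no GMA-SS array. Its air level did not exceed the dimmest signal above background on the GMA-SS arrays, so no lower level after GMA-SS is shown. *Col23a1* was above background on all 16 blood arrays and gave 0.16 ± 0.13 at 4 hr and -0.06 ± 0.13 at 28 d.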

How the data were processed

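Lung, aorta and blood RNA was measured on Illumina MouseRef-8 beadchips. For each of 47 arrays the authors deposited the average signal of each entry, a mean bead intensity exported without normalization, the detection p-value, whose steps for single probes match 798 negative controls, and normalized log2 values, for which the methods name lumi and limma. Here the intensity and detection p-values were used, and the authors' log2 values as an alternative. The mean and SD of the negative controls were worked out from the detection p-values of entries with a single probe. Background was removed by normexp (limma 3.58.1, R 4.3.3). After 16 had been added, values were put on the log2 scale and quantile-normalized within a tissue, or over lung and aorta air arrays together for the tissue comparison. Entries of lung and blood were named through probe identifiers shared with the aorta file, and the highest entry by mean signal stood for a symbol. All 36 collagen symbols are current. For 12 of them the signal is over several probes, and detection p-values of such entries can miss bright signals, as for *Col18a1*, above background on 10 of 16 lung arrays.

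All arrays of a tissue entered a single fit with a mean for each group (lmFit, eBayes with trend), without a block, and p-values were adjusted over all genes tested by the method of Benjamini and Hochberg. The procedure was tested on simulated data. Members, lists and the rule for naming genes (all members past the adjusted p, the 3 highest and 3 lowest, 10 main chains, 5 each way in the tissue comparison, up to 4 of each list) were chosen with earlier results of these data known. Alternatives were no background correction, 75th percentile scaling, no or a stricter detection filter (p under 0.01), bright entries kept, only the groups compared, the authors' values, array weights, a replicate block and each array left out. Precision is limited by 3 or 4 arrays a group. Relative to background, the 75th percentile of signal was 6.69 to 8 in lung, 2.99 to 3.7 in aorta and 2.37 to 3.32 in blood.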

Additional observations from a re-analysis of the deposited data

Results flagged for a closer look

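Of 196 groups of 4 arrays looked at (in lung and aorta, each member above background on at least 1 array of the tissue), 15 (7.65%) held an array set apart from the others, by a gap over 0.829 of the range of the group, where chance gives about 1 in 20.

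On aorta GMA-SS 28 d replicate 2, which carried airway and cartilage transcripts, *Col2a1* (6.47), *Col9a2* (6.55), *Col10a1* (5.91) and *Col17a1* (5.79) stood above the other 3 arrays. On aorta air 28 d replicate 1, *Col5a3* (5.25) and *Col10a1* (4.59) were high and *Col4a4* (4.83) was low, within ranges of 0.51, 0.23 and 0.12. *Col5a1* was high (10.4) on aorta air 4 hr replicate 4.

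On lung GMA-SS 28 d replicate 2, which carried skeletal muscle transcripts, *Col4a1* (14.48, others 14.09 to 14.15) and *Col4a5* (10.83, others 10.66 to 10.69) were high. *Col4a5* was also high on lung air 28 d replicate 3 (11.03) and *Col5a3* on lung air 28 d replicate 2 (6.52). On lung GMA-SS 4 hr replicate 4 *Col6a2* was high (11.22, others 10.96 to 11) and *Col4a1* low (14.34, others 14.37), in a group whose whole range was 0.03. *Col4a4* was low on lung GMA-SS 4 hr replicate 1 (9.46).

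The effect of GMA-SS on *Col6a2* in lung differed between the times (28 d minus 4 hr, -0.49, limma adjusted p = 0.0434). This call was close to the threshold and was lost in most fits that left out an array.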

How the results depend on the processing

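Fits that left out an array are given below. Among the other alternatives, array weights gave 5 collagen genes called in place of 3 in air aortas over time. All their other counts were within 1.5 times those reported. In lung at 4 hr these alternatives gave 6 calls, other than array weights, which gave 9 (7 higher, 2 lower, *Col6a1*, *Col6a2* and *Col18a1* added). At 28 d they gave 5 or 6. *Col3a1*, *Col1a1*, *Col1a2*, *Col17a1*, *Col12a1* and *Col6a2* kept the calls reported for GMA-SS against air in lung in every setting and with any array left out. Leaving out 1 array at a time gave 4 to 7 calls in lung at 4 hr, 4 to 7 at 28 d, 3 to 6 in air lungs over time (3 without air 4 hr replicate 1), 3 to 4 in air aortas, 0 to 1 for the difference of effects in lung, 0 to 0 in aorta and 23 to 25 between tissues. The replicate block gave 6 and 5 calls in lung, 0 and 0 in aorta, 4 in air lungs and 4 in air aortas. Deviations of same-numbered air and GMA-SS arrays had correlations of -0.039 to 0.183 in lung and -0.328 to 0.488 in aorta. The numbers do not pair the samples, because air and GMA-SS arrays came from different mice.

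Signs turned for values that did not pass the test, most of them near 0. In aorta at 4 hr, 75th percentile scaling gave *Col4a1* -0.02 and *Col4a2* 0, and leaving out single arrays gave *Col4a1* -0.03 to 0.09, *Col4a2* 0 to 0.06, *Col5a1* 0 to 0.13, *Col6a1* -0.04 to 0.12, *Col18a1* -0.04 to 0.12 and *Col4a6* -0.23 to 0.09. In aorta at 28 d, *Col6a1* was 0.01 with the authors' values and -0.12 to 0.06 with arrays left out, *Col2a1* -0.03 with array weights and -0.05 to 0.47, *Col1a1* -0.14 to 0.06 and *Col4a1* -0.1 to 0.02. In lung at 28 d, *Col4a2* ran from -0.08 to 0.01 and *Col5a2* from -0.07 to 0.18. The causes were not tested.

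Groups held 3 or 4 arrays, signals in aorta were nearer to background than in lung, and 14 members were not tested in aorta.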

Other observations

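*Col7a1*, the anchoring fibril collagen under stratified and airway epithelium, was not tested because its deposited detection p passed on no lung array, and the entry is over several probes, for which detection p-values do not follow the signal. Its log2 level at 4 hr was 7.58, 7.47, 7.60 and 7.61 in air and 7.28, 7.03, 7.21 and 7.19 after GMA-SS, and at 28 d 7.50, 7.47, 7.85 and 7.72 in air and 6.94, 7.51, 7.43 and 7.50 after GMA-SS. Fitted without a detection filter, it gave -0.39 at 4 hr (limma adjusted p = 0.076) and -0.29 at 28 d (adjusted p = 0.218).

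The entries now named *Col6a6* and *Col26a1* are listed under older names and were above background on no lung or aorta array. Of the collagen genes on the array 6 pairs are adjacent in the genome, including *Col3a1* with *Col5a2*, *Col4a1* with *Col4a2* and *Col6a1* with *Col6a2*.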
